A study of Bos taurus with 15 samples.

Results

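The genes of the pyruvate dehydrogenase complex and of the enzymes that switch it on and off were described in subcutaneous adipose tissue of dairy cows. The names listed were *PDK1*, *PDK2*, *PDK3*, *PDK4*, *PDP1*, *PDP2*, *PDHA1*, *PDHB*, *DLAT* and *PDHX*, and a member was any of these 10 that stood in all 6 tables of the study. Of the 10, 9 were found among 13896 genes, and *PDP2*, a second phosphatase of the complex, was not analysed here. The list was selected on results of these data, since the higher level of *PDK4* in SNEB cows at 1 week after calving than before it was in view when it was drawn up. For that gene in that comparison, values are given with no test.

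According to the design text given with the data, the question was which mRNAs differ in level before and after calving in cows on a low and a high energy diet, and the study itself compared cows grouped by energy balance. Primiparous Holstein cows gave biopsies of the fat of the dewlap, under the neck, after a fast of 12 h. Samples fell 4 weeks before calving (-4 wkpp, weeks peripartum) and 1 and 16 weeks after it. The 3 libraries at -4 wkpp were taken before the diets began and carry no diet. From then on the cows received either the low energy diet or the high energy diet. The labels name the diet of a library, while the study split its cows by their energy balance at 1 wkpp into a severe (SNEB) and a moderate (MNEB) group, where NEB stands for negative energy balance. Libraries labelled with the low energy diet are called SNEB here and those with the high energy diet MNEB, since the library numbers in the labels match those of the study's groups. Each of these groups had 3 libraries at 1 wkpp and 3 at 16 wkpp. The cows sequenced had been picked for the most extreme energy balance at 1 wkpp, so they do not stand for the average cow of each diet. Which libraries came from the same cow is not stated in the labels, and the p-values below measure the spread between these 3 libraries of each group.

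Pyruvate dehydrogenase is the mitochondrial complex that turns pyruvate, the end product of glycolysis, into acetyl-CoA, and thereby commits glucose carbon to oxidation or to fatty acid synthesis. Pyruvate dehydrogenase kinases (the PDK genes) phosphorylate and inactivate the complex, and pyruvate dehydrogenase phosphatases (the PDP genes) remove that phosphate. *PDK4* is known as the kinase induced by fasting, fatty acids and glucocorticoids and lowered by insulin, so it spares glucose when fat is burned. In ruminants the fat tissue builds fatty acids largely from acetate rather than from glucose.

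The tables held no counts of single libraries, but the whole read counts could be solved exactly from their mean columns for 13891 genes on exons and 13893 on the entire gene. Levels are given as normalized read counts, that is, reads divided by the size factor of the library, and libraries within a group are numbered by size factor, the largest first. The number belongs to no cow. Reads on exons summed to between 7989920 and 13793463 per library at -4 wkpp, between 10982735 and 13556791 in SNEB at 1 wkpp and between 11652878 and 14632181 in SNEB at 16 wkpp. They summed to only 2027524 to 6983820 in MNEB at 1 wkpp and 2811196 to 7484367 in MNEB at 16 wkpp. Reads on synthetic spike-in RNAs made up 2.90% to 23.6% of the exonic gene reads in the 6 MNEB libraries and 0.181% to 1.55% in the other 9 libraries. For 6 abundant spike-ins of the 92 the counts could not be solved, and they are left out of these shares. Depth and spike-in share thus move with the MNEB groups, and their part in the MNEB results below was not tested. A gene was called when limma voom gave an adjusted p below 0.01 both on exons and on the entire gene, with the same sign.

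*PDK4* spanned the widest range of the members, and all its libraries after calving stood above those before it. At -4 wkpp, its normalized exonic read count was 1811, 1772 and 2013 in libraries 1, 2 and 3. It was 20329, 6930 and 21726 in SNEB at 1 wkpp and 13097, 15725 and 8741 in SNEB at 16 wkpp. All 6 SNEB libraries thus stood above the 3 libraries at -4 wkpp, and library 2 of SNEB at 1 wkpp was the lowest of the SNEB libraries. The *PDK4* count was 16679, 6199 and 3999 in MNEB at 1 wkpp and 5220, 13482 and 2158 in MNEB at 16 wkpp. The lowest MNEB library at 16 wkpp lay close to the range at -4 wkpp but did not overlap it. The group means were 1865 ± 129 at -4 wkpp, 8959 ± 6776 in MNEB and 16328 ± 8169 in SNEB at 1 wkpp, and 6953 ± 5857 in MNEB and 12521 ± 3527 in SNEB at 16 wkpp (SD, n = 3 each). Within a group the highest library was 4.17 times the lowest in MNEB at 1 wkpp, 3.13 times in SNEB at 1 wkpp and 6.25 times in MNEB at 16 wkpp, against 1.14 times at -4 wkpp.

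At 1 wkpp in SNEB, *PDK4* was 7.80 times as high as at -4 wkpp, a log2 fold change of 2.96 on exons and 3.03 on the entire gene. This is the value the gene was chosen for. Without library 2 of SNEB at 1 wkpp the exonic log2 fold change was 3.50. At 1 wkpp in MNEB, *PDK4* was 3.94 times as high as at -4 wkpp (log2 fold change of 1.98, SE 0.43), with an adjusted p of 0.00687 on exons but 0.0658 on the entire gene, so the gene was not called. Without library 1 of MNEB at 1 wkpp, the log2 fold change was 1.38. Both comparisons use 1 set of libraries before calving, so they are not separate observations of that state. The test of *PDK4* in MNEB is thus not independent of the value the gene was chosen for.

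After calving, *PDK4* did not pass the test between any of the groups. SNEB at 1 wkpp was 2.01 times as high as MNEB at 1 wkpp (log2 fold change of 1.01, SE 0.57, limma adjusted p = 0.259), with a 95% interval from -0.29 to 2.30 and overlapping libraries. SNEB at 16 wkpp was 2.29 times as high as MNEB at 16 wkpp (log2 fold change of 1.19, SE 0.65, limma adjusted p = 0.212), with a 95% interval from -0.29 to 2.67. Single libraries moved both estimates: at 1 wkpp the log2 fold change was 0.57 without library 3 and 1.59 without library 1 of MNEB, and 1.53 without library 2 of SNEB. At 16 wkpp it was 0.43 without library 3 and 1.94 without library 2 of MNEB. Between 1 and 16 wkpp, the log2 fold change of 1 over 16 wkpp was 0.43 (SE 0.69) in MNEB and 0.24 (SE 0.44) in SNEB. Leaving out single libraries turned the sign of both, to -0.28 without library 3 of MNEB at 16 wkpp, to -0.12 without library 1 of MNEB at 1 wkpp and to -0.05 without library 3 of SNEB at 1 wkpp. The 95% interval of the log2 fold change in SNEB ran from -0.77 to 1.25.

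**Figure D1:**
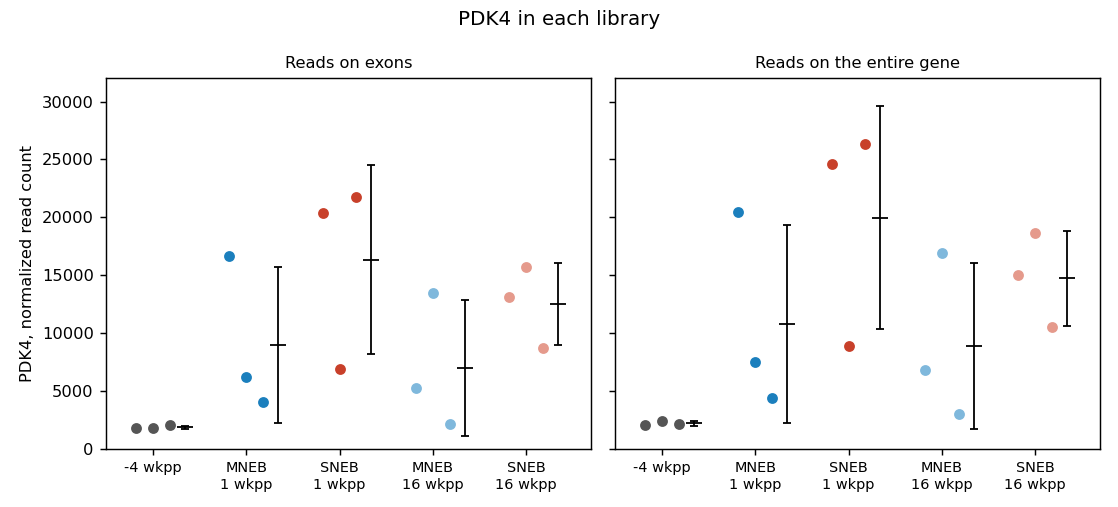
Normalized read counts of PDK4 (vertical axis, linear) from reads on exons (left) and on the entire gene (right) in the 5 groups; each point is a library, in the order 1 to 3, and the bar beside it is the mean with its SD. The 3 libraries at -4 wkpp lie between 1772 and 2013 on exons, below every library after calving, and the libraries after calving spread from 2158 to 21726.

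For the other 3 kinases, no group after calving stood above the range at -4 wkpp. *PDK1*, which is also known as a target of hypoxia signalling, had normalized exonic read counts of 709, 439 and 683 at -4 wkpp and of 269, 292 and 298 in MNEB at 1 wkpp. All 3 MNEB libraries were below all others of the series. Its counts were 521, 449 and 630 in SNEB at 1 wkpp, 499, 637 and 807 in MNEB at 16 wkpp and 710, 649 and 643 in SNEB at 16 wkpp, ranges that overlap each other except between SNEB at the 2 times. The log2 fold change of *PDK1* in MNEB at 1 wkpp over -4 wkpp was -1.08 (SE 0.25), with an adjusted p of 0.0102 on exons and 0.0316 on the entire gene. Over MNEB at 16 wkpp it was -1.16 (SE 0.24), with a limma adjusted p of 0.214.

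*PDK3*, another kinase of the family, was also lowest in MNEB at 1 wkpp. Its counts there were 113, 113 and 121, against 364, 392 and 252 at -4 wkpp and 265, 340 and 170 in SNEB at 1 wkpp. On exons the MNEB libraries lay below all libraries of both other groups. On the entire gene they counted 393, 674 and 709 and overlapped SNEB at 1 wkpp, at 678, 927 and 611, and the log2 fold change of SNEB over MNEB was 0.49 there against 1.12 on exons. The log2 fold change in MNEB at 1 wkpp over -4 wkpp was -1.52 (SE 0.30), with a limma adjusted p of 0.00398 on exons, but on the entire gene it was -0.92 with an adjusted p of 0.0914. At 16 wkpp, *PDK3* counted 175, 247 and 165 in MNEB and 252, 331 and 328 in SNEB on exons. On the entire gene it counted 820, 907 and 712 in MNEB and 769, 949 and 799 in SNEB, which overlap. The log2 fold change of SNEB over MNEB was 0.03 there against 0.67 on exons.

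*PDK2*, the kinase expressed most widely among tissues, had the narrowest range of group means on exons among the members. Its group means on exons lay between 210 ± 53 in MNEB at 16 wkpp and 280 ± 64 in SNEB at 1 wkpp (SD, n = 3), and the libraries ranged from 149 to 339. The largest exonic log2 fold change among the 6 comparisons was 0.35 (SE 0.22) for SNEB over MNEB at 16 wkpp, with a limma adjusted p of 0.279, and on the entire gene it was 0.44. On the entire gene *DLAT* was flatter, with log2 fold changes from -0.22 to 0.16. For *PDK2*, the interval of the exonic log2 fold change in MNEB at 1 wkpp over -4 wkpp ran from -0.69 to 0.46. A change of the size seen on exons for *PDK1* or *PDK3* lay outside it.

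*PDP1*, the phosphatase that reactivates the complex, was lower in MNEB at 1 wkpp than in any other group. The libraries of MNEB at 1 wkpp counted 382, 308 and 276. Those at -4 wkpp counted 627, 686 and 593, those of SNEB at 1 wkpp 703, 548 and 680, those of MNEB at 16 wkpp 592, 599 and 691, and those of SNEB at 16 wkpp 988, 838 and 525. No library of MNEB at 1 wkpp overlapped another group. The log2 fold change over -4 wkpp was -0.95 (SE 0.22), with an adjusted p of 0.0102 on exons and 0.114 on the entire gene, just short of the threshold on exons. SNEB at 1 wkpp had 1.95 times the *PDP1* level of MNEB at 1 wkpp (log2 fold change of 0.96, SE 0.23), with an adjusted p of 0.0259 on exons. The same gene in SNEB at 1 wkpp over -4 wkpp had a log2 fold change of 0.01 (SE 0.16), with a 95% interval from -0.36 to 0.38.

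*PDHA1* encodes the catalytic alpha subunit of pyruvate dehydrogenase, whose serines the kinases phosphorylate. Its normalized exonic read count was 2022, 1715 and 1685 at -4 wkpp. At 1 wkpp it was 601, 538 and 507 in MNEB and 1030, 1214 and 1097 in SNEB. At 16 wkpp it was 970, 838 and 766 in MNEB and 1127, 1124 and 1092 in SNEB. Every library after calving was below every library at -4 wkpp, and the 3 lowest libraries of the series were those of MNEB at 1 wkpp. The spread within a group was small, with group means of 1807 ± 186 at -4 wkpp, 549 ± 48 in MNEB and 1114 ± 93 in SNEB at 1 wkpp, and 858 ± 104 in MNEB and 1114 ± 19 in SNEB at 16 wkpp (SD, n = 3).

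*PDHA1* at -4 wkpp was 3.27 times as high as in MNEB at 1 wkpp. The log2 fold change of MNEB at 1 wkpp over -4 wkpp was -1.71 (SE 0.20), with a limma adjusted p of 4.1e-04 on exons, and -1.46 with an adjusted p of 0.0125 on the entire gene, which missed the threshold. For SNEB at 1 wkpp it was -0.70 (SE 0.16), with an adjusted p of 0.0728 on exons and 0.266 on the entire gene. Between the groups at 1 wkpp, SNEB was 2.03 times as high as MNEB (log2 fold change of 1.02, SE 0.20), with an adjusted p of 0.0136 on exons and 0.0710 on the entire gene. At 16 wkpp the same contrast was 0.38 (SE 0.16), with a limma adjusted p of 0.112. For 1 over 16 wkpp, *PDHA1* had a log2 fold change higher in SNEB than in MNEB by 0.63 (SE 0.23), with a limma adjusted p of 0.982.

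*PDHB*, the beta subunit that pairs with PDHA1, followed the same order at lower contrast. Its exonic counts were 531, 556 and 477 at -4 wkpp, 291, 203 and 191 in MNEB at 1 wkpp, and 428, 467 and 418 in SNEB at 1 wkpp. The MNEB libraries lay apart from both other groups, and those of SNEB lay below those at -4 wkpp. The log2 fold change in MNEB at 1 wkpp over -4 wkpp was -1.13 (SE 0.25), with an adjusted p of 0.00688 on exons and 0.109 on the entire gene. For SNEB it was -0.26 (SE 0.15), with a limma adjusted p of 0.5. At 16 wkpp, *PDHB* counted 341, 303 and 287 in MNEB and 406, 316 and 489 in SNEB, which overlap.

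*DLAT*, the acetyltransferase core of the complex, and *PDHX*, the protein that tethers its dihydrolipoamide dehydrogenase, varied less. *DLAT* counted 362, 294 and 406 at -4 wkpp and 221, 213 and 202 in MNEB at 1 wkpp, without overlap. Its log2 fold change there was -0.71 (SE 0.24), with an adjusted p of 0.0438 on exons, but -0.20 with an adjusted p of 0.676 on the entire gene. *PDHX* counted 325, 248 and 293 at -4 wkpp, 197, 216 and 213 in MNEB at 1 wkpp and 239, 220 and 253 in SNEB at 1 wkpp. Its log2 fold change in MNEB at 1 wkpp over -4 wkpp was -0.47 (SE 0.23), with a limma adjusted p of 0.146. For SNEB at 1 wkpp over -4 wkpp, the log2 fold changes of *DLAT* and *PDHX* were -0.38 (SE 0.23) and -0.28 (SE 0.18).

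**Figure D2:**
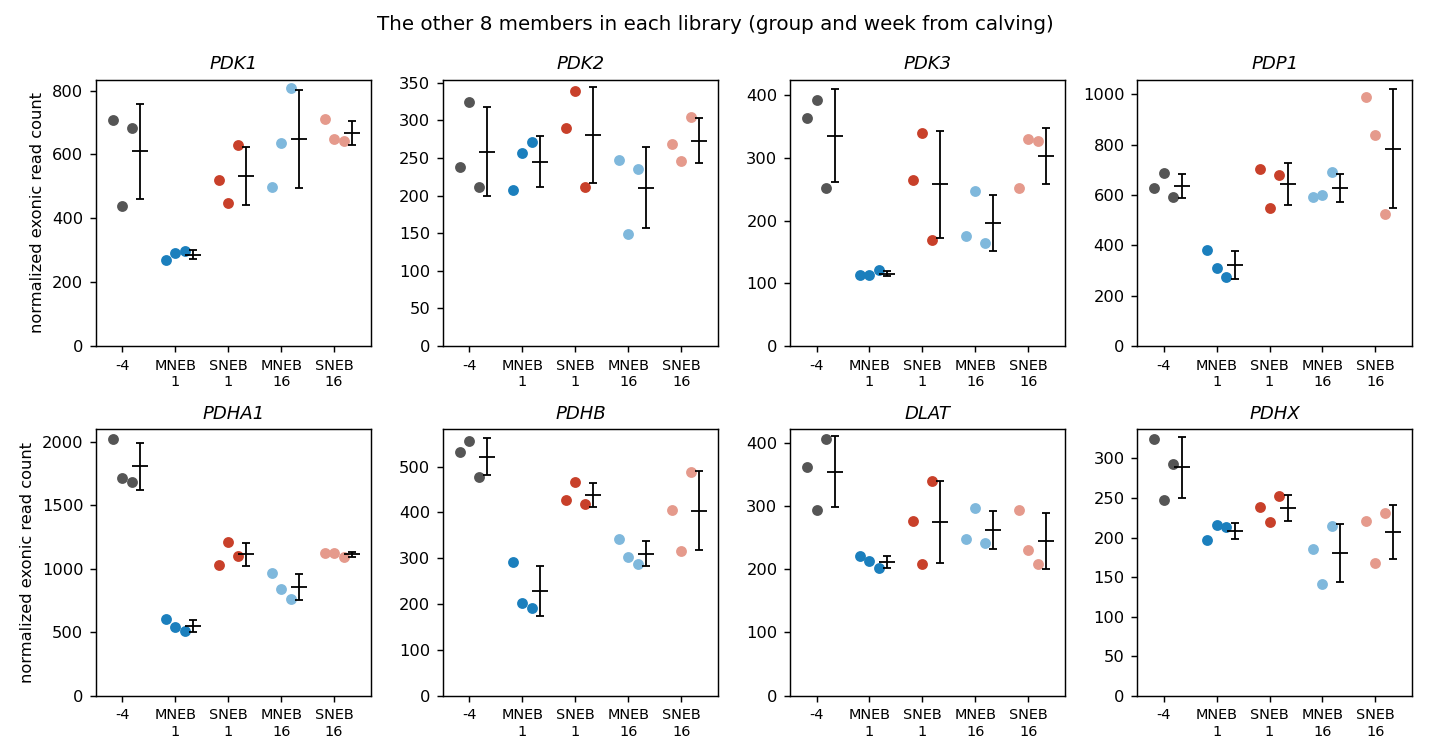
Normalized exonic read counts (vertical axes, linear from 0) of the other 8 members in the 5 groups; each point is a library, in the order 1 to 3, and the bar beside it is the mean with its SD. In the panels of PDK1, PDK3, PDP1, PDHA1, PDHB and DLAT, the 3 libraries of MNEB at 1 wkpp form the lowest group mean, while PDK2 shows no group apart.

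Read against all genes, the members were called in none of the 6 comparisons when both exons and entire gene had to pass. Between MNEB at 1 wkpp and -4 wkpp, 0 of 9 members were called by limma voom, where 1.82% of 10411 genes tested were. At an unadjusted p below 0.05 on both, 6 of the 9 members passed (*PDK1*, *PDK3*, *PDK4*, *PDP1*, *PDHA1* and *PDHB*), against 25.3% of all genes. On exons alone, 4 members passed an adjusted p of 0.01 (*PDK3*, *PDK4*, *PDHA1* and *PDHB*), where 16.5% of all genes did. With an adjusted p below 0.05 in both, 2 members passed (*PDK1* and *PDHA1*), where 10.2% of genes did. The median exonic log2 fold change of the 9 members was -0.95, and that of all genes tested was -0.04. Only *PDK4* had a positive estimate here, where 52.1% of all genes had a negative exonic one. The libraries at -4 wkpp also entered the value *PDK4* was chosen for. Its place in these counts is therefore not independent support.

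Between SNEB at 1 wkpp and -4 wkpp, 0 of the 8 members tested were called, where 0.0378% of all genes were, 4 genes in number. On exons alone 0.494% of genes and none of the 8 members passed. At an unadjusted p below 0.05 on both, 1 of the 8 passed (*PDHA1*), against 9.60% of all genes. The median log2 fold change of the 8 was -0.27, and that of all genes 0.03. Between MNEB at 1 and 16 wkpp, 0 of 9 members and 0% of all genes were called, on both or on exons alone. Of the members, 3 of 9 (*PDK1*, *PDP1* and *PDHA1*) had an unadjusted p below 0.05 on both, with negative estimates, against 8.02% of all genes. Between SNEB at 1 and 16 wkpp, 0 of 9 members and 0% of genes were called and 0 members had an unadjusted p below 0.05, against 4.54% of all genes.

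In SNEB over MNEB at 1 wkpp, 0 of 9 members and 0% of all genes were called on both, and on exons alone 0 members and 2.41% of genes. At an unadjusted p below 0.05, 4 of 9 members passed (*PDK1*, *PDP1*, *PDHA1* and *PDHB*), against 18.3% of all genes. All 9 exonic estimates were positive, with a median of 0.91 against 0.07 over all genes, of which 46.3% had a negative estimate. On the entire gene the estimate of *DLAT* was 0.00. In SNEB over MNEB at 16 wkpp, 0 of 9 members were called where 3.65% of genes were, and on exons alone 0 members where 10.4% of genes were. No member (0 of 9) had an unadjusted p below 0.05 on both, against 26.1% of all genes. For the change from 1 to 16 wkpp compared between SNEB and MNEB, 0 of 9 members and 0% of genes were called, and 1 member (*PDHA1*) had an unadjusted p below 0.05, against 2.81% of all genes. With the other limma setting, on log2(normalized count + 1) without weights, *PDHA1* was the only member tested that was called. This was in MNEB at 1 wkpp over -4 wkpp only, where 2.4% of all genes were called.

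**Figure D3:**
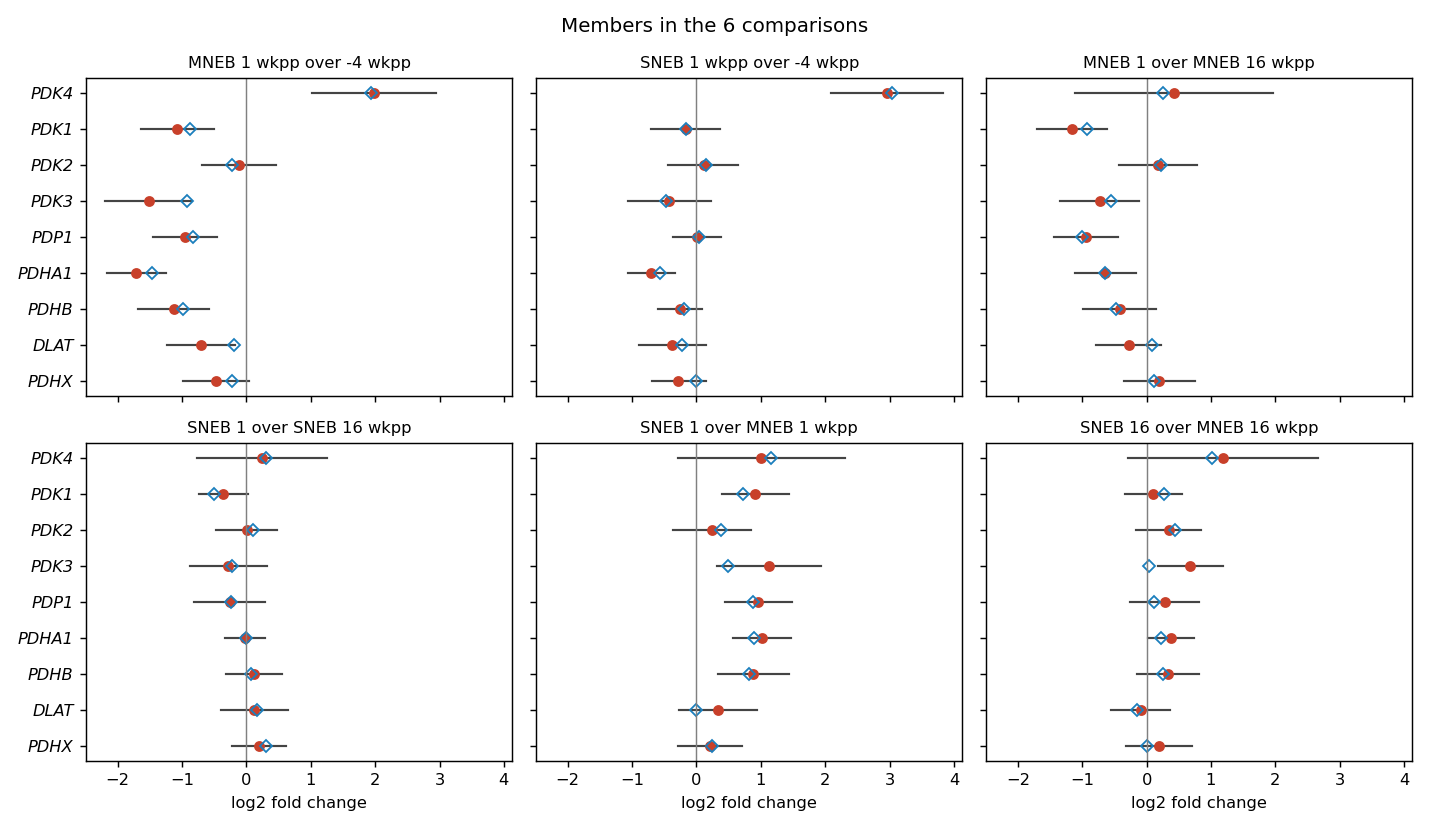
Log2 fold changes (horizontal axes) of the 9 members in the 6 comparisons; filled circles are reads on exons with their 95% interval, and open diamonds are reads on the entire gene. PDK4 lies to the right of the other members in the 2 panels against -4 wkpp, at 1.98 and 2.96, while PDHA1 lies at -1.71 and -0.70.

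Against -4 wkpp, *PDK4* and *PDHA1* differed in opposite directions, while both estimates were positive in SNEB over MNEB at 1 and 16 wkpp. Their reads were also set against each other within a library, which needs no scaling between libraries. This ratio was chosen after the values had been seen, and it is of reads, not of molecules, as the genes differ in length. *PDK4* had 0.896, 1.03 and 1.19 exonic reads per read of *PDHA1* at -4 wkpp. The ratio was 27.8, 11.5 and 7.88 in MNEB and 19.7, 5.71 and 19.8 in SNEB at 1 wkpp. At 16 wkpp it was 5.38, 16.1 and 2.82 in MNEB and 11.6, 14.0 and 8.00 in SNEB. Every library after calving was above every library at -4 wkpp. The ratio in MNEB at 1 wkpp was 13.2 times that at -4 wkpp. For SNEB at 1 wkpp it was 12.6 times that at -4 wkpp (both are given with no test, since the ratio was chosen on these values). Between SNEB and MNEB at 1 wkpp the ratio was 0.960 times as high, and the libraries overlapped.

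**Figure D4:**
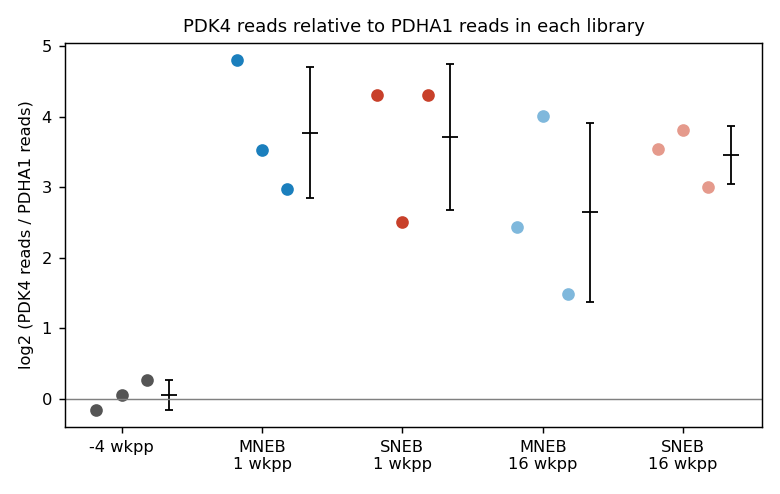
Log2 of PDK4 exonic reads over PDHA1 exonic reads (vertical axis) in the 5 groups; each point is a library, in the order 1 to 3, and the bar beside it is the mean with its SD. The 3 libraries at -4 wkpp lie between -0.16 and 0.26, and the 12 libraries after calving lie between 1.49 and 4.80.

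Around the complex, 11 genes of pyruvate entry, cofactors and other subunits were followed. This list and those below were drawn up with earlier results of these data known. Between -4 wkpp and MNEB at 1 wkpp, 1 of the 11 was called, where 1.82% of all genes were. This was *MPC1*, a subunit of the carrier that brings pyruvate into mitochondria, which fell. Its log2 fold change was -2.29 (SE 0.23), with a limma adjusted p of 1.9e-04 on exons. By limma voom, 0 of these genes were called in the other 5 comparisons, where 0% to 3.65% of all genes were. All 11 were tested in each of them, except for 10 in MNEB at 1 over 16 wkpp. Of 13 enzymes and carriers of other fates of pyruvate and acetyl-CoA, 6 were called in MNEB at 1 wkpp over -4 wkpp, against 1.82% of all genes. All 6 fell, and the median log2 fold change of the 13 was -2.24 against -0.04 for all genes. The 3 with the largest change were *PCK1*, phosphoenolpyruvate carboxykinase, at -4.63, *GPT2*, mitochondrial alanine aminotransferase, at -4.20, and *FASN*, fatty acid synthase, at -4.09. For SNEB at 1 wkpp over -4 wkpp, 2 of the 13 were called, against 0.0378% of all genes. These were *FASN* at -4.98 and *ACACA*, acetyl-CoA carboxylase, at -3.02. The median of the 13 was -1.78 against 0.03 for all genes. At 16 wkpp, 1 of the 13 was called between the groups, against 3.65% of all genes. This was *PC*, pyruvate carboxylase, with a log2 fold change of SNEB over MNEB of -1.68 (SE 0.30).

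**Figure D5:**
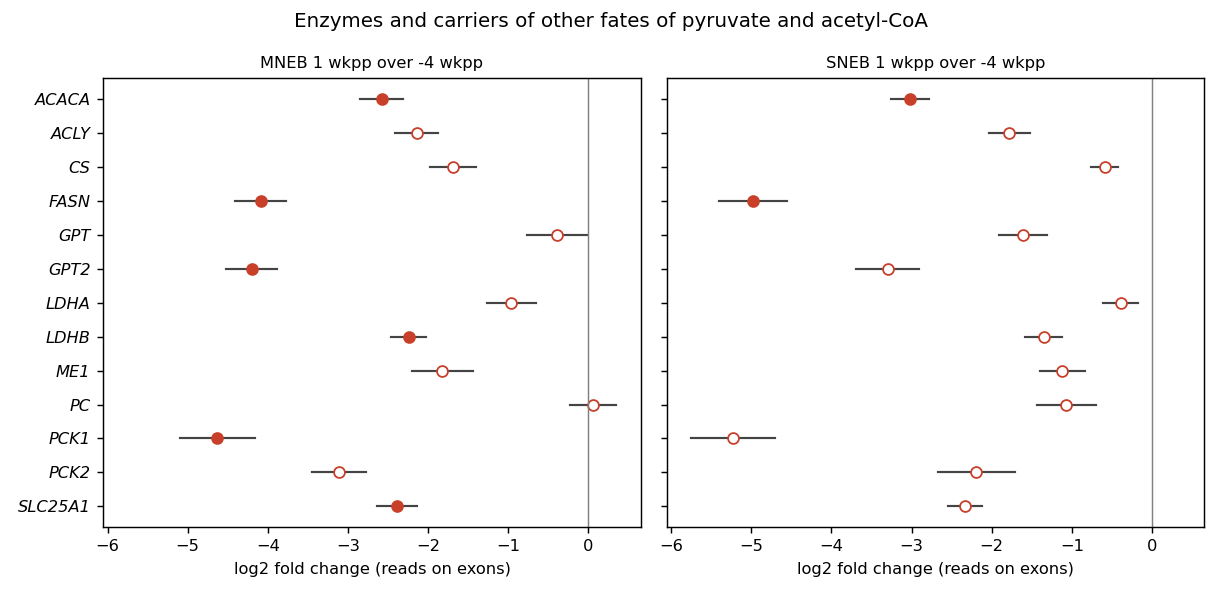
Exonic log2 fold changes (horizontal axes) of 13 enzymes and carriers of other fates of pyruvate and acetyl-CoA at 1 wkpp over -4 wkpp in MNEB (left) and SNEB (right); points are estimates, lines are 1 SE to each side, and filled points were called on both exons and entire gene. FASN lies at -4.09 and -4.98 and PCK1 at -4.63 and -5.23.

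Of 14 transcription factors and coactivators known to act on PDK genes, 12 stood in the tables and 11 were tested. By limma voom, 0 of the 11 were called in each of the 6 comparisons, where 0% to 3.65% of all genes were. Their median log2 fold change was 0.01 in both MNEB and SNEB at 1 wkpp over -4 wkpp, but single members differed in both directions on exons alone. In MNEB at 1 wkpp over -4 wkpp, *PPARD*, a nuclear receptor for fatty acids, had a log2 fold change of 1.56 (limma adjusted p = 9.1e-04 on exons and 0.162 on the entire gene), and *NR3C1*, the glucocorticoid receptor, one of -1.24 (0.00201 and 0.0598). For SNEB over MNEB, *PPARD* was at -1.39 at 1 wkpp (limma adjusted p = 0.00994 on exons, 0.462 on the entire gene) and at -1.35 at 16 wkpp (9.8e-04 and 0.125). Of 14 genes known to respond to fasting or glucocorticoids, 11 were tested. From -4 wkpp to MNEB at 1 wkpp, 1 was called and rose, where 1.82% of all genes were called. This was *PER1*, a clock gene induced by glucocorticoids, with a log2 fold change of 1.81 (SE 0.26). The median of the 11 was 1.21 against -0.04 for all genes. *ACADM* (-0.80), *HADHA* (-0.74) and *TSC22D3* (-0.06) had negative exonic estimates, and the rest had positive ones. In SNEB over MNEB, *PER1* was lower, at -1.23 at 1 wkpp and -1.24 at 16 wkpp, and was not called at either time. For SNEB at 1 wkpp over -4 wkpp, 0 of the 11 were called, where 0.0378% of all genes were. The median of the 11 was 0.77 against 0.03 for all genes.

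Among 8015 genes with a mean normalized exonic read count of at least 100, the 5 whose log2 level followed that of *PDK4* most closely over the 15 libraries were *STX12* (Pearson's r = 0.92), *IL6R* (0.90), *CPT1A* (0.89), *CYP4V2* (0.88) and *CDC42EP4* (0.88). *CPT1A* encodes the carnitine palmitoyltransferase that lets long fatty acids into mitochondria, and its group means ranged from 634 to 2574. After the group means were taken out, r with *PDK4* was 0.63 for *CPT1A* and 0.92 for *CYP4V2*. The 5 most like *PDHA1* were *RTN4* (0.97), *PRKAR2B* (0.97), *HIBADH* (0.96), *SEC22B* (0.96) and *ATP5A1* (0.95). Among the members, *PDHB* was closest to *PDHA1* (r = 0.92) and *PDK3* next (r = 0.85), while *PDK4* had r = -0.34. After the group means were taken out these were 0.49, 0.20 and 0.20. The points of these correlations share libraries, groups and scaling, and they describe likeness only.

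The labelled tissue showed its markers in every group. The summed normalized exonic read count of 6 adipocyte markers was 45850 to 56151 at -4 wkpp, 21055 to 58374 in MNEB and 73541 to 88966 in SNEB at 1 wkpp, and 10572 to 41805 in MNEB and 42384 to 49550 in SNEB at 16 wkpp. In MNEB at 1 wkpp over -4 wkpp, 2 of the 6 were called, where 1.82% of all genes were. Both fell, *LEP* at -3.85 and *CIDEC* at -2.36. The other 4 were not called, and their log2 fold changes ran both ways, -0.87 for *FABP4*, -0.85 for *PLIN1*, 0.52 for *PNPLA2* and 0.93 for *LIPE* (limma adjusted p = 0.0198 on exons). In bulk tissue, fewer adipocytes and less RNA of a gene in each adipocyte cannot be told apart. Of 10 skeletal muscle markers, 9 were in the tables and their sum was 1173 to 4117 in the MNEB libraries and 85 to 357 in the other libraries. Nearly all of this sum was *TNNT3*, a fast troponin T, at 1170 to 3940 in MNEB at 1 wkpp and 1644 to 3783 in MNEB at 16 wkpp, where its log2 fold change of SNEB over MNEB was -3.28 and it was called. Counts of the other 8 were low, and 7 of them (*ACTA1*, *MYH1*, *MYH2*, *MYH7*, *MYL1*, *MYLPF* and *TNNT1*, all but *CKM*) had their highest group mean in MNEB at 1 wkpp. The libraries there were far apart, from 0 to 95 for *ACTA1*, skeletal actin, and from 1 to 51 for *MYH7*, a slow myosin heavy chain. The mean of *ACTA1* was 31.9 against 5.39 at -4 wkpp and 0.926 in SNEB at 1 wkpp. That of *MYH7* was 26.5 against 15.8 and 7.29, while its fitted log2 fold change in MNEB over -4 wkpp was -1.13 (SE 1.06). At 16 wkpp the mean of *ACTA1* was 13 in MNEB and 1.59 in SNEB, and that of *MYH7* was 3.11 and 4.03. None of the differences in *ACTA1* or *MYH7* that were tested was called. Of the 9 markers, *MYLPF* was at 0 in all libraries at -4 wkpp and in MNEB at 16 wkpp, *TNNT1* in MNEB at 16 wkpp and *MYH1* in SNEB at 1 wkpp. The sum of 6 macrophage markers was 10967 to 14401 in SNEB and 2059 to 2402 in MNEB at 16 wkpp. There *CD163*, *MSR1* and *CSF1R* were called with log2 fold changes of 3.30, 2.95 and 1.97, and 3.65% of all genes were called. At 1 wkpp these macrophage sums were 8025 to 12858 in SNEB and 2097 to 7347 in MNEB. The 5 endothelial markers summed to 19260 to 23431 at -4 wkpp and to 29468 to 63267 at 1 wkpp. The markers of erythrocytes (15 to 353), lymphocytes (46 to 198), keratinocytes (60 to 793) and mammary epithelium (31 to 618) had low sums in all 15 libraries. The part of these marker differences in the values of the members was not tested.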

How the data were processed

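RNA of 15 libraries (5 groups of 3) was sequenced after ribosomal RNA depletion as stranded libraries. Per the labels and methods, the authors used bcl2fastq 2.15.0, Cutadapt 1.3, TopHat2 on bosTau8 and HTSeq counting, once on exons and once on entire genes, and compared 2 groups at a time with DESeq2. Each of the 6 deposited tables gives, for 13896 genes and 92 spike-ins, the mean over 6 libraries of the count divided by size factors. These 12 columns, made by the authors, were used here. The remaining 60 columns hold the authors' fold changes, errors, statistics and p-values and were not used. There were 0 columns of other samples.

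Size factors were read from genes with reads in 1 group only for 14 of the 15 libraries on exons and 13 on entire genes. Those of the other libraries came from genes with reads in several groups, after the reads of the groups already solved were taken away. Whole counts per library were then solved from the 6 means of a gene by lattice reduction, accepted where all means were met to within 1 unit of the 15th digit (largest deviation 0.659). This gave 13977 of 13988 entries on exons and 13981 on entire genes; the rest, 5 genes on exons and 3 on entire genes, had means of at least 106472 and were left out, as were all spike-ins. Group membership came from which tables a library enters. Size factors recomputed from the counts differed by at most 0.0616%. The recovery and the tests were checked on simulated data. Depending on the comparison, the tests found 25% to 42% of simulated 2-fold changes and 92% to 99% of 4-fold ones. A count of 0 members called thus does not show that no member changed by 2-fold.

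Counts were scaled by the median of ratios and compared with limma 3.58.1 (voom, empirical Bayes, R 4.3.3) on the 6 libraries of a comparison, or 12 for the difference of changes, over genes with a mean normalized count of at least 10, with Benjamini-Hochberg adjustment over all genes tested. A gene was called at an adjusted p below 0.01 on both kinds of read. The levels printed use size factors over all 15 libraries. Python 3.11.15, numpy 2.4.6, sympy 1.14.0 and matplotlib 3.10.9 were used.

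The members and gene lists were chosen with earlier results of these data known. Named genes were all members; of each list, the 3 called genes with the largest log2 fold change; the 5 genes most like *PDK4* and *PDHA1*; and markers of lists that moved with a group. *PPARD*, *NR3C1*, *DBT*, *BCKDHB*, *BCKDHA*, *ACADM*, *HADHA* and *TSC22D3* fall outside this rule and were named after their values were seen. No sequence was at hand for these genes, and coordinates were not used here, since the annotation at hand (ARS-UCD2.0) belongs to another assembly than bosTau8. Libraries of a group were not duplicates of each other, with a chi-square per gene of at least 15.2.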

Additional observations from a re-analysis of the deposited data

How the results depend on the processing

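The count of members called was 0 in every comparison tested, and it was recomputed under 96 alternatives, of which 90 also gave 0 and 6 gave more. In MNEB at 1 wkpp over -4 wkpp it became 4 with exon counts alone (16.5% of all genes called), 2 with an adjusted p below 0.05 (10.2%), 2 with one fit on all 15 libraries (10.5%), 1 with total count scaling (3.12%) and 1 with limma on log2(normalized count + 1) without weights (2.4%). In SNEB over MNEB at 1 wkpp it became 1 (*PDHA1*) with one fit on all 15 libraries (3.15%). Entire gene counts alone and no filter on low counts gave 0 in every comparison, as did leaving out any single library (0 to 0 over 48 fits; where this left 2 libraries in a group, limma pooled the spread over groups). Those 48 fits called 0% to 4.3% of all genes, so their counts say little about stability. Total count scaling moved the median of all genes by 0.12 in MNEB at 1 wkpp over -4 wkpp and by at most 0.09 in the other comparisons. The log2 fold change of *PDK4* ranged from 1.38 to 2.42 in MNEB and from 2.67 to 3.50 in SNEB at 1 wkpp over -4 wkpp, from -0.28 to 1.13 in MNEB and -0.05 to 0.77 in SNEB at 1 over 16 wkpp, and from 0.57 to 1.59 and 0.43 to 1.94 for SNEB over MNEB at 1 and 16 wkpp. The cause was not tested. No paired analysis was possible because the recovered libraries carry no replicate number and no cow.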

Other observations

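Related complexes that share the design of pyruvate dehydrogenase were read beside it. Of 9 genes of the branched-chain and other 2-oxo acid dehydrogenases with their kinase and phosphatase, 8 were tested. Of these 8, 0 were called by limma voom in each of the 6 comparisons, where 0% to 3.65% of all genes were. Their median log2 fold change at 1 wkpp over -4 wkpp was -0.30 in MNEB and -0.26 in SNEB, against -0.95 for the 9 members in MNEB and -0.27 for the 8 members tested in SNEB. The 8 genes spread widely in MNEB, from 0.35 for *BCKDHA* to -1.92 for *DBT*, the core subunit of the branched-chain complex, which had a limma adjusted p of 0.00172 on exons and 0.0152 on the entire gene. *BCKDHB* was at -1.19 (adjusted p = 0.0273 on exons). On exons the estimate of *DBT* was below that of each member, *PDHA1* at -1.71 included. On the entire gene *DBT* was at -1.37 and *PDHA1* at -1.46. The difference between the lists was not tested.

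After the group means were taken out, the log2 level of *PDK4* had r = -0.76 with that of *PDK2* and r = -0.06 with those of *PDK1* and *PDK3* over 15 libraries. With the other members r was 0.61 for *DLAT*, 0.40 for *PDP1*, 0.20 for *PDHA1*, 0.17 for *PDHB* and -0.51 for *PDHX*. These 8 values were read together and stand as a description of libraries that share groups and scaling. In SNEB at 1 wkpp, library 2 had the lowest *PDK4* (6930) and the highest *PDK2* (339) of its group.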
